A study of Basiliscus vittatus and Chrysopelea ornata and Dasypeltis gansi with 10 samples.

Results

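The genes described here encode microtubule motors, centrosome and rootlet proteins, enzymes that fold or modify tubulin, and proteins that bind microtubules. They were chosen by protein name from a table of 630 one-to-one orthologs in the cerebella of 10 squamate species. A name had to hold kinesin, dynein, dynactin, tubulin, microtubule, centrosom, centriol, rootletin or myomegalin, and rows naming a kinase, ubiquitin or microtubule-actin were left out. This gave 13 of the 630 genes, and 3 further rows held one of these words and were dropped by an excluded one. The rule used no measured value.

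Expression was measured by total RNA sequencing of cerebella from adult wild-type animals, and each species has 1 FPKM value per gene (fragments mapped to its transcript, divided by transcript length and by the mapped reads of the library). The 6 limbless species were 3 that move by lateral undulation, namely the legless lizard Pseudopus apodus with the snakes Chrysopelea ornata and Pantherophis guttatus, and then the snakes Dasypeltis gansi and Python regius (other movements), and the sand boa Eryx colubrinus (facultative burrower). The 4 quadrupedal lizards were Pogona vitticeps and Mochlus fernandi (terrestrial), Trioceros jacksonii (arboreal) and Basiliscus vittatus (facultatively bipedal). The comparisons ask whether expression of these genes differs with locomotor specialisation. P. apodus is the only limbless species that is no snake, so limb state and lineage cannot be told apart in the other 9 species. With 1 value per species, the spread behind each test is the spread between species. It holds ancestry, individual and technical variation together. In limma, the linear model fitted here, the spread of a gene is drawn partly from the other genes as well.

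Microtubules are polar filaments of alpha- and beta-tubulin that grow mostly at the plus end and serve as tracks in axons and dendrites. Kinesins carry cargo mainly towards plus ends, and cytoplasmic dynein with its partner dynactin carries it back towards minus ends. The centrosome organises microtubules in dividing and migrating cells and forms the base of the primary cilium, and the cilium of cerebellar granule cell precursors receives the Hedgehog signal that drives their division. The Purkinje cell, with a large dendritic tree and a long axon, depends on transport along these tracks.

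Summed FPKM of the 630 genes ranged from 6289 in M. fernandi to 15880 in E. colubrinus, and the 13 genes made up 2.01% (E. colubrinus) to 4.11% (T. jacksonii) of that sum. The limbless species had the higher mean in 71.0% of all 630 genes, with a median difference of 0.35 on the log2(FPKM + 1) scale. After each species was centred to the same median, 51.3% of all genes were higher in limbless species, so for the 13 genes each difference between limbless and quadrupedal species is given with centred species as well. All 9 markers of cerebellar cell types were above 0 in every library, but so was every value of the 630 genes, so this is no test of the cell types present. In P. apodus inositol 1,4,5-trisphosphate receptor type 1, a Purkinje cell marker, was at 1.38 FPKM, against 34.9 to 156 in the other species. The other Purkinje cell marker, metabotropic glutamate receptor 1, was at 18.8 FPKM in P. apodus, within the range of the other species (9.41 to 30.4). Levels are compared between genes only as FPKM, which are already divided by transcript length.

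Mean levels of the 13 genes ran from 4.02 FPKM for centriolin to 76.7 FPKM for cytoplasmic dynein 1 heavy chain 1, and their median mean level of 23.4 FPKM stood beside 14.5 over all 630 genes. The motor subunits of kinesin-1 and cytoplasmic dynein 1 and the dynactin subunit were abundant in most cerebella, while centriolin and the ciliary dynein were low. The ratio of the highest to the lowest species was 3.27 for the least variable gene and 77.0 for the most variable, with a median of 12.2 against 10.3 over all genes. The members thus differed widely among themselves in how much they varied between species.

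**Figure D1:**
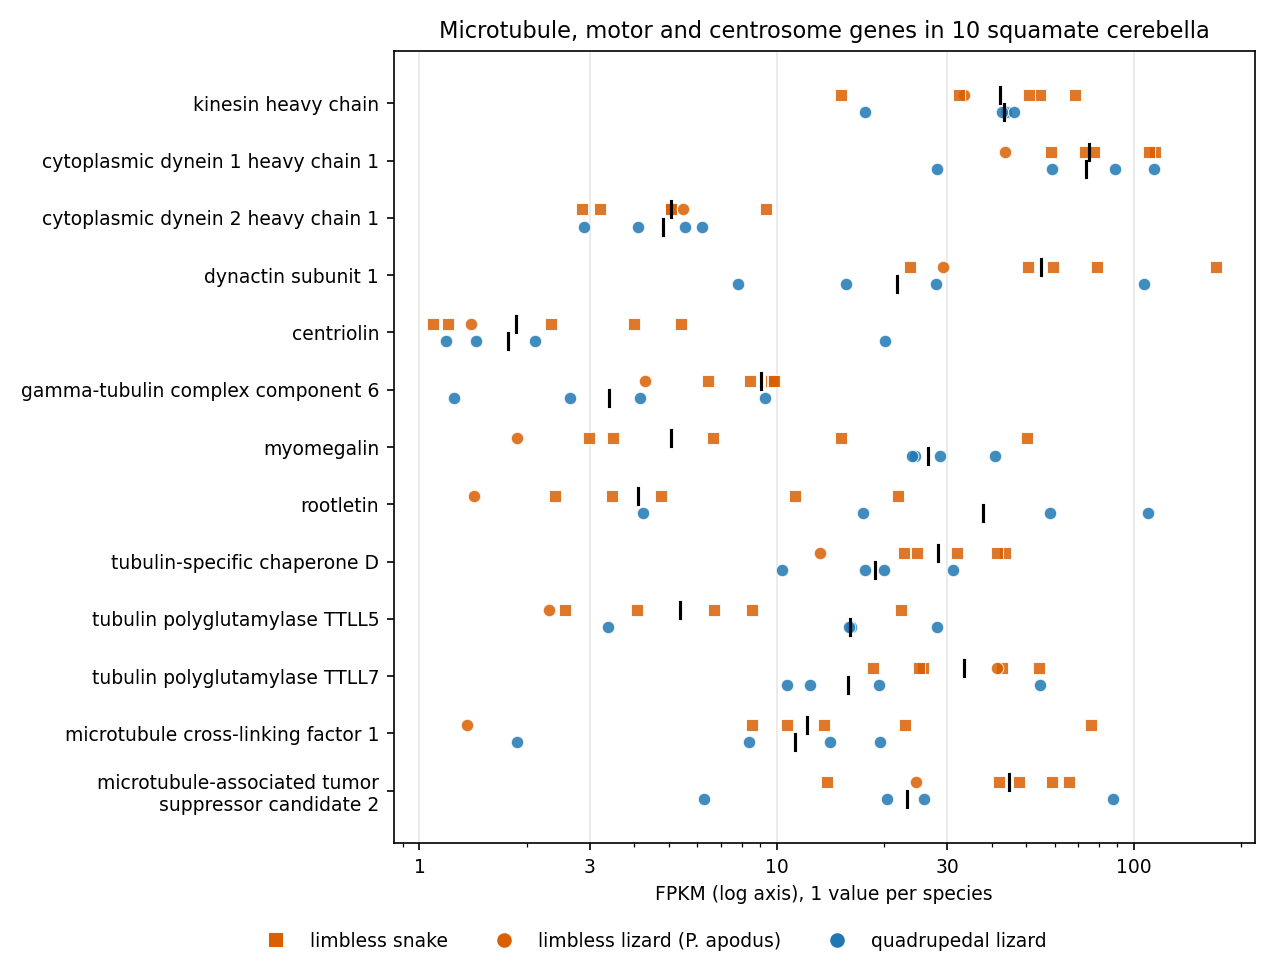
FPKM (log axis) of the 13 genes, 1 point per species, with limbless species above (squares for snakes, an orange circle for P. apodus) and quadrupedal lizards below (blue circles); black ticks are group medians. Rootletin spans 1.42 to 109.4 FPKM and cytoplasmic dynein 2 heavy chain 1 spans 2.85 to 9.32. The limbless and quadrupedal ranges overlap in all 13 genes. Of all 630 genes, only 2.7% were wholly higher and 0.317% wholly lower in limbless species.

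Among the motors, cytoplasmic dynein 1 heavy chain 1, the force-producing subunit of the main minus-end motor, was the most abundant on average. In limbless species it was at 115 FPKM in P. guttatus, 72.9 in C. ornata, 43.6 in P. apodus, 110.1 in D. gansi, 77.4 in P. regius and 58.7 in E. colubrinus. In quadrupedal species it was at 88.4 FPKM in P. vitticeps, 28.1 in M. fernandi, 58.9 in T. jacksonii and 114 in B. vittatus. High and low species occurred in both groups, and the means were 79.6 ± 28.1 FPKM (SD, n = 6) and 72.3 ± 37.1 (SD, n = 4). Within each library this gene stood between the 92.2 and the 99.4 percentile of the 630 orthologs, and M. fernandi, with the lowest FPKM, also had the lowest summed FPKM. Its SD across species, 0.65 on the log2(FPKM + 1) scale, was at the 15.2 percentile of all genes.

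Kinesin heavy chain, the motor subunit of kinesin-1, is listed without a paralog, and which of the related kinesin-1 genes it represents cannot be told from the name. Its level was 68.3 FPKM in P. guttatus, 54.6 in C. ornata, 33.5 in P. apodus, 51.0 in D. gansi, 15.1 in P. regius and 32.4 in E. colubrinus. Among the quadrupedal species, P. vitticeps had 44.0 FPKM, M. fernandi 46.3, T. jacksonii 17.7 and B. vittatus 42.7. The chameleon and the python stood far below the rest, and the other 3 quadrupedal lizards lay close together. In P. regius and T. jacksonii the gene was at the 43.8 and 55.9 percentiles of its library, whereas in the other 8 species it was at the 76.3 percentile or above.

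Dynactin subunit 1, which binds both dynein and the microtubule, showed the opposite picture in those species. It was at 79.1 FPKM in P. guttatus, 23.6 in C. ornata, 29.2 in P. apodus, 50.4 in D. gansi, 169.5 in P. regius and 59.3 in E. colubrinus. Quadrupedal levels were 15.7 FPKM in P. vitticeps, 7.82 in M. fernandi, 107 in T. jacksonii and 28.0 in B. vittatus. P. regius and T. jacksonii were the highest of the 10 species, and in P. regius the gene reached the 99.8 percentile of its library. The ratio of kinesin heavy chain to dynactin subunit 1 within a library ran from 0.0891 in P. regius and 0.166 in T. jacksonii to 5.93 in M. fernandi, a 66.5-fold range. Over the 10 species, Pearson's r of the 2 genes was -0.74 with centred species and -0.58 without centring. This correlation is a description over 10 points, in which each point takes both values from 1 library.

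**Figure D2:**
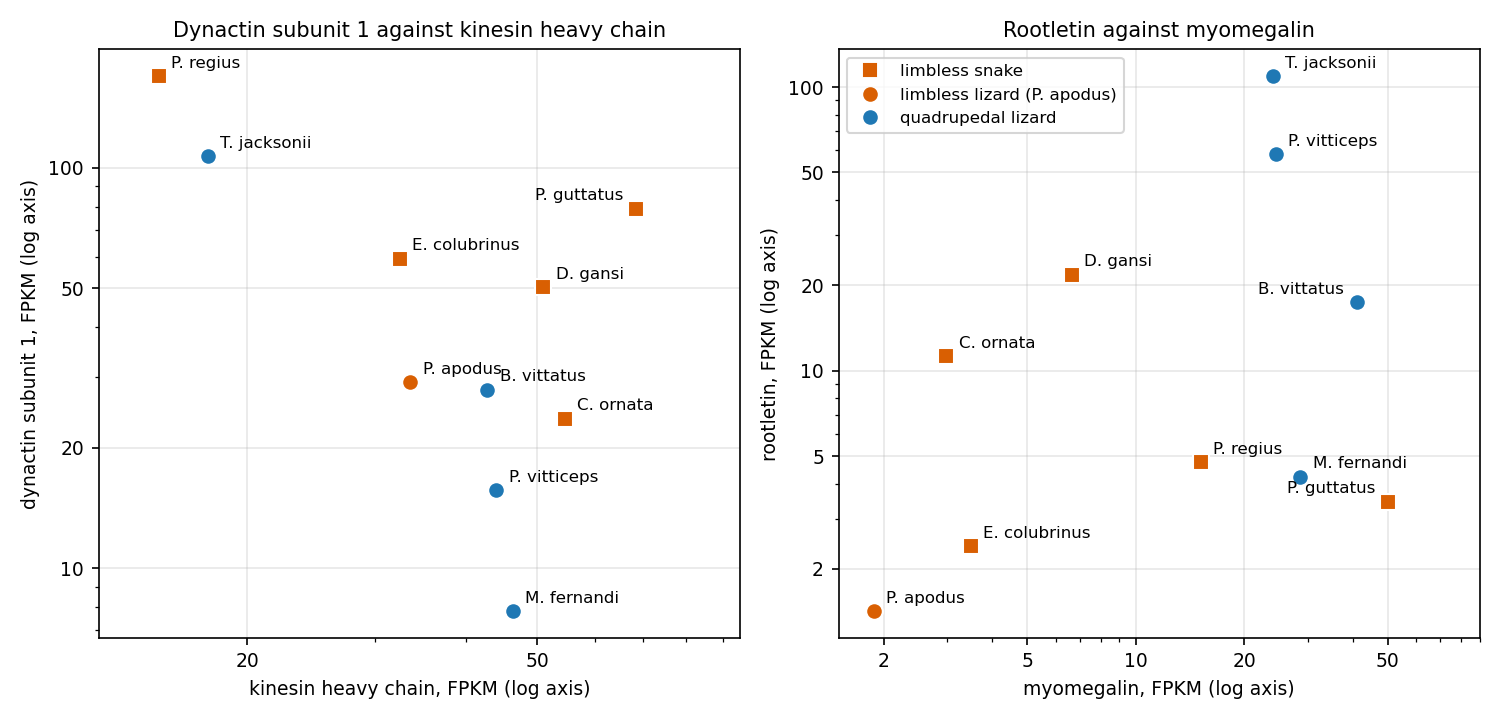
Left, dynactin subunit 1 against kinesin heavy chain, and right, rootletin against myomegalin, in FPKM on log axes, 1 labelled point per species (squares, snakes; orange circle, P. apodus; blue circles, quadrupedal lizards). P. regius (15.1 and 169.5 FPKM) and T. jacksonii (17.7 and 107) lie apart at low kinesin and high dynactin, and on the right 5 of the 6 limbless species have less myomegalin than every quadrupedal lizard.

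The ratio of dynactin subunit 1 to the dynein 1 heavy chain varied 12.4-fold, from 0.177 in P. vitticeps to 2.19 in P. regius. It was above 1 in P. regius, T. jacksonii (1.81) and E. colubrinus (1.01), and its median was 0.678 in limbless and 0.262 in quadrupedal species. The kinesin to dynein ratio ran from 0.195 in P. regius to 1.65 in M. fernandi, the only library with more kinesin than dynein 1 heavy chain.

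Cytoplasmic dynein 2 heavy chain 1, the motor of retrograde transport inside cilia, was low in every species. Limbless levels were 5.07 FPKM in P. guttatus, 5.06 in C. ornata, 5.48 in P. apodus, 9.32 in D. gansi, 2.85 in P. regius and 3.20 in E. colubrinus. The 4 quadrupedal lizards had 5.55 FPKM (P. vitticeps), 2.88 (M. fernandi), 6.18 (T. jacksonii) and 4.09 (B. vittatus). The species of lateral undulation differed 1.08-fold at most, and the gene's SD of 0.45 was at the 2.38 percentile of all genes. With centred species the SD was 0.70, at the 33.8 percentile. Within a library it was 0.0359 (B. vittatus) to 0.126 (P. apodus) of the dynein 1 heavy chain.

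None of the 4 motor genes passed limma between limbless and quadrupedal species, adjusted over all 630 genes, where 0.0% of all genes passed. All 4 had the higher mean in limbless species, but only dynactin subunit 1 kept that sign once species were centred. Its log2 difference was 1.11 (SE 0.69, 95% interval -0.33 to 2.55, limma adjusted p = 0.647), and 0.77 with centred species. Leaving out 1 species moved it between 0.59 (without M. fernandi) and 1.79 (without T. jacksonii), with limma adjusted p from 0.266 to 0.944. Differences were 0.23 for the dynein 1 heavy chain (centred -0.11), 0.12 for kinesin heavy chain (centred -0.22) and 0.08 for the ciliary dynein (centred -0.26). The intervals of the dynein 1 heavy chain (-0.87 to 1.34) and of kinesin heavy chain (-1.01 to 1.24) reached past 1 log2 unit, as did that of the ciliary dynein (-0.93 to 1.10).

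The centrosome and rootlet genes held the largest differences between limbless and quadrupedal species among the 13. Rootletin, which forms the fibrous rootlet under the cilium and links the centrioles, was lower in limbless species on average. It was at 3.45 FPKM in P. guttatus, 11.2 in C. ornata, 1.42 in P. apodus, 21.8 in D. gansi, 4.75 in P. regius and 2.40 in E. colubrinus. Quadrupedal levels were 58.1 FPKM in P. vitticeps, 4.23 in M. fernandi, 109.4 in T. jacksonii and 17.5 in B. vittatus. The bearded dragon and the chameleon had more than every limbless species, the basilisk had less than D. gansi, and M. fernandi had less than 3 of the limbless species. Means were 7.51 ± 7.82 FPKM (SD, n = 6) and 47.3 ± 47.3 (SD, n = 4). The log2 difference was -2.18 (SE 0.79, 95% interval -3.82 to -0.53). The limma p of 0.0125 ranked 23 of 630 and did not pass the adjustment (limma adjusted p = 0.284), and the exact two-sided rank sum test gave p = 0.114.

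Leaving out 1 species moved the rootletin difference from -2.18 to values between -2.99 (without M. fernandi) and -1.52 (without T. jacksonii), with limma adjusted p from 0.168 to 0.579. The sign stayed negative each time. Across species rootletin ran from the 3.02 percentile of its library in E. colubrinus to the 99.1 percentile in T. jacksonii, and its SD of 1.83 was at the 98.1 percentile of all genes. The 2 terrestrial lizards alone differed 13.7-fold.

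Myomegalin, a scaffold of the centrosome and the Golgi that anchors microtubule nucleation, showed a step between groups with 1 species out of place. Its levels were 2.98 FPKM in C. ornata, 1.88 in P. apodus, 6.65 in D. gansi, 15.2 in P. regius, 3.49 in E. colubrinus and 50.1 in P. guttatus. P. vitticeps had 24.5 FPKM, M. fernandi 28.7, T. jacksonii 24.0 and B. vittatus 41.0. Hence 5 of 6 limbless species lay below all quadrupedal lizards, while the corn snake P. guttatus lay above all of them. Quadrupedal lizards were the more even group, with a mean of 29.5 ± 7.94 FPKM (SD, n = 4) against 13.4 ± 18.6 (SD, n = 6), and the 2 terrestrial lizards differed 1.17-fold. The log2 difference was -1.85 (SE 0.69, 95% interval -3.29 to -0.40). By limma the unadjusted p was 0.0152 (rank 31) and the adjusted p 0.284, and the exact two-sided rank sum test gave p = 0.114.

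Over all omissions of 1 species, the myomegalin difference ranged from -2.37 (without P. guttatus) to -1.54 (without P. apodus). The limma adjusted p ran from 0.178 to 0.592, and the smallest came from leaving out P. guttatus, the species out of place. The 3 species of lateral undulation spanned the gene's whole range, 26.7-fold, from P. apodus to P. guttatus. The order of the quadrupedal lizards differed between both genes, since M. fernandi had the least rootletin of the 4 and more myomegalin than P. vitticeps and T. jacksonii. Their r over the 10 species was 0.37 with centred species.

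With centred species, rootletin differed by -2.52 (limma unadjusted p = 0.00325, adjusted p = 0.171) and myomegalin by -2.19 (limma unadjusted p = 0.00352, adjusted p = 0.171). Of the markers, the astroglial sodium bicarbonate cotransporter 1 had a lower mean in limbless species without centring (-1.57, limma unadjusted p = 0.0239, adjusted p = 0.367). With centred species it differed by -1.91 (limma unadjusted p = 0.00235, adjusted p = 0.171). The sum of the 2 astroglial markers was 12.0 to 73.1 FPKM in limbless and 36.7 to 129 in quadrupedal species. The other astroglial marker, fibroblast growth factor receptor 3, differed by -0.14 (centred -0.49). In the other direction, the oligodendrocyte lineage marker carnosine synthase 1 had a higher mean in limbless species (1.28, limma unadjusted p = 0.0375, adjusted p = 0.429). With centred species it differed by 0.94 (limma unadjusted p = 0.0529, adjusted p = 0.4865). Of the same lineage, ATP-binding cassette sub-family A member 2 differed by 0.88 (centred 0.54) and tenascin-R by -0.72 (centred -1.06). Sums of Purkinje cell markers (20.2 to 183 and 50.3 to 103 FPKM), granule cell markers (73.0 to 655 and 126 to 315) and oligodendrocyte lineage markers (19.1 to 68.0 and 10.5 to 43.7) overlapped between limbless and quadrupedal species, as those of astroglial markers did. The part of cell composition in the differences was not tested, and in whole cerebella fewer cells of a type and less RNA per cell cannot be told apart.

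Gamma-tubulin complex component 6, a subunit of the ring from which microtubules are nucleated, went the other way. Limbless species had 9.66 (P. guttatus), 6.44 (C. ornata), 4.29 (P. apodus), 9.74 (D. gansi), 9.81 (P. regius) and 8.45 FPKM (E. colubrinus). Quadrupedal species had 4.15 (P. vitticeps), 2.64 (M. fernandi), 9.29 (T. jacksonii) and 1.25 FPKM (B. vittatus). The chameleon alone among the lizards reached the level of the snakes, and 3 snakes were above it. Every limbless species was above every quadrupedal lizard but the chameleon, so here too 1 species was out of place. The exact two-sided rank sum test between limbless and quadrupedal species gave p = 0.0667. The log2 difference between limbless and quadrupedal species was 0.95 (SE 0.52, limma adjusted p = 0.621), and 0.60 with centred species. Over omissions of 1 species it ran from 0.60 (without B. vittatus) to 1.34 (without T. jacksonii).

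Centriolin, a protein of the mother centriole and of the late dividing cell, was near the bottom of the table in 9 libraries. It was at 1.09 to 5.40 FPKM in limbless species (median 1.87) and at 1.19, 2.10 and 1.44 FPKM in P. vitticeps, M. fernandi and B. vittatus. T. jacksonii had 20.1 FPKM, the 63.8 percentile of its library, where no other species passed the 14.9 percentile. The sign of the small limbless difference, -0.41 (SE 0.64, limma adjusted p = 0.826), rested on that library and was 0.35 without it. With centred species the difference was -0.75.

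**Figure D3:**
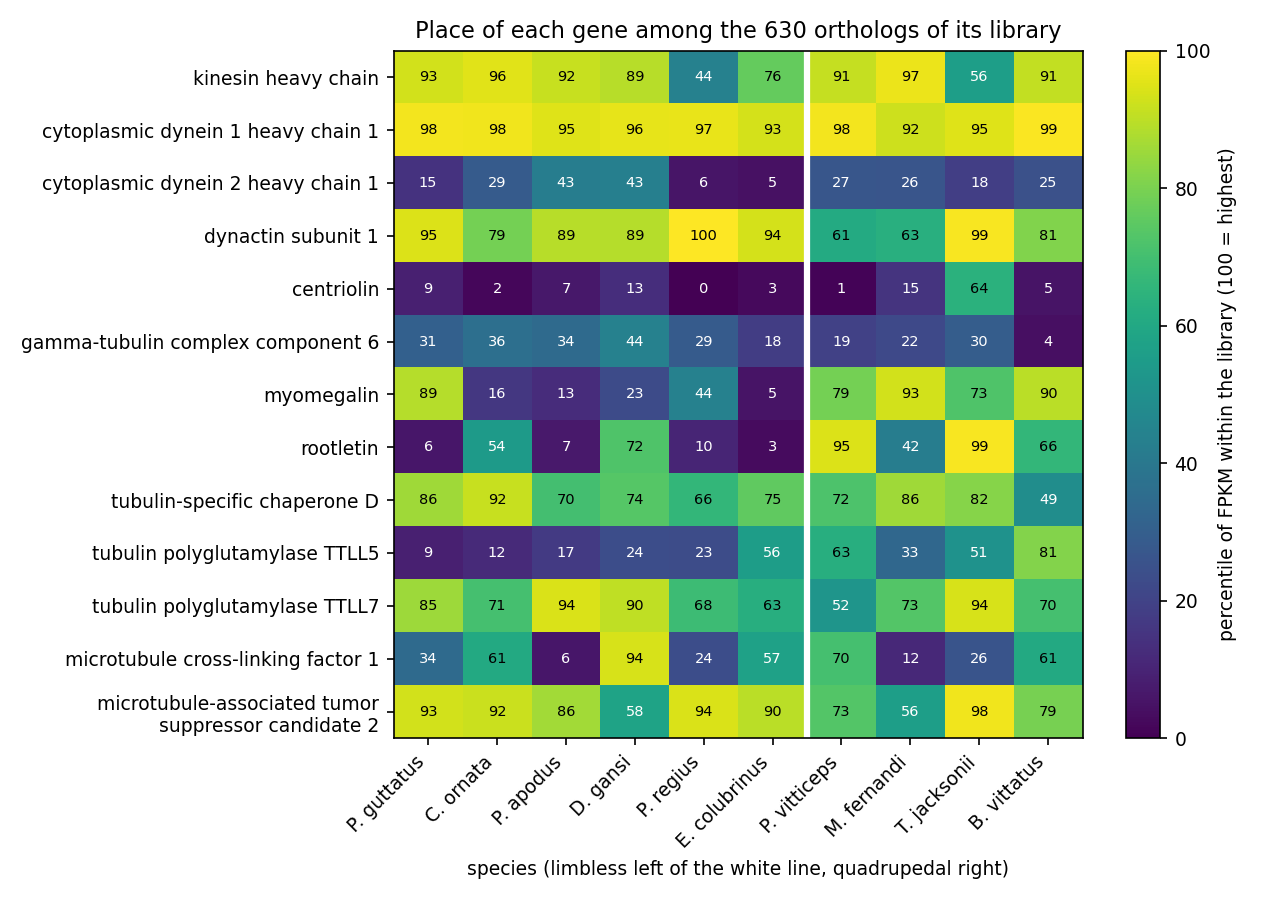
Percentile of each gene's FPKM among the 630 orthologs of the same library (100 = highest), species in columns with limbless species left of the white line. Cytoplasmic dynein 1 heavy chain 1 stays between 92.2 and 99.4 in every species, whereas rootletin runs from 3.02 to 99.1 and centriolin is above 14.9 only in T. jacksonii (63.8).

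Tubulin-specific chaperone D, which assembles the alpha- and beta-tubulin dimer, was among the even genes, with an SD of 0.65 at the 15.4 percentile. It was at 43.5 FPKM in P. guttatus, 41.4 in C. ornata, 13.2 in P. apodus, 22.8 in D. gansi, 24.7 in P. regius and 32.0 in E. colubrinus. The quadrupedal lizards had 19.99 FPKM (P. vitticeps), 17.6 (M. fernandi), 31.2 (T. jacksonii) and 10.4 (B. vittatus). All 5 snakes were above every lizard but the chameleon, and P. apodus fell among the lizards. The limbless difference was 0.55 (SE 0.51, limma adjusted p = 0.764), and 0.21 with centred species.

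The 2 polyglutamylases, which add glutamate side chains to tubulin tails (in mammals TTLL5 mainly starts chains on alpha-tubulin and TTLL7 acts on beta-tubulin), differed in opposite directions. TTLL5 was at 4.06 FPKM in P. guttatus, 2.56 in C. ornata, 2.31 in P. apodus, 6.70 in D. gansi, 8.55 in P. regius and 22.2 in E. colubrinus. It was at 16.2 FPKM in P. vitticeps, 3.38 in M. fernandi, 16.0 in T. jacksonii and 28.2 in B. vittatus. The sand boa and M. fernandi thus crossed over between the groups. TTLL7 was at 42.6 FPKM in P. guttatus, 18.6 in C. ornata, 41.4 in P. apodus, 54.3 in D. gansi, 25.7 in P. regius and 25.0 in E. colubrinus. In quadrupedal species it was at 12.4 FPKM in P. vitticeps, 10.7 in M. fernandi, 54.6 in T. jacksonii and 19.3 in B. vittatus, with the chameleon as high as D. gansi.

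Log2 differences were -1.02 for TTLL5 (SE 0.64, limma adjusted p = 0.647) and 0.70 for TTLL7 (SE 0.55, limma adjusted p = 0.754). With centred species TTLL5 differed by -1.36 (limma unadjusted p = 0.0142, adjusted p = 0.298) and TTLL7 by 0.36. Leaving out 1 species, TTLL5 ranged from -1.58 (without M. fernandi) to -0.67 (without B. vittatus) and TTLL7 from 0.43 (without M. fernandi) to 1.18 (without T. jacksonii). The TTLL7 to TTLL5 ratio within a library was above 1 in 8 species, from 1.12 in E. colubrinus to 17.9 in P. apodus, and below 1 in B. vittatus (0.686) and P. vitticeps (0.766). Its median was 7.69 in limbless and 1.97 in quadrupedal species.

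Microtubule cross-linking factor 1, which bundles microtubules and in mice maintains the axon initial segment of Purkinje cells, varied 55.8-fold. Limbless levels were 10.7 FPKM in P. guttatus, 13.6 in C. ornata, 1.36 in P. apodus, 75.9 in D. gansi, 8.56 in P. regius and 22.9 in E. colubrinus, and quadrupedal levels were 19.5 in P. vitticeps, 1.88 in M. fernandi, 8.35 in T. jacksonii and 14.1 in B. vittatus. The extremes stood apart from the rest, with the lowest values in P. apodus and M. fernandi and a single high one in D. gansi. The egg-eating snake D. gansi also had the highest sums of granule cell markers (655 FPKM) and of Purkinje cell markers (183 FPKM). Of the Purkinje cell sum, inositol 1,4,5-trisphosphate receptor type 1 made up 156 FPKM. Metabotropic glutamate receptor 1 was at 27.4 FPKM in D. gansi, below P. guttatus (30.4). The part of cell composition in the D. gansi level of microtubule cross-linking factor 1 was not tested. The limbless difference was 0.53 (SE 0.78, limma adjusted p = 0.821), 0.19 with centred species and -0.04 without M. fernandi.

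Microtubule-associated tumor suppressor candidate 2, a protein of growing plus ends, was highest in T. jacksonii (87.2 FPKM) and lowest in M. fernandi (6.26). The other lizards had 20.4 (P. vitticeps), 25.9 (B. vittatus) and 24.5 FPKM (P. apodus), and the snakes had 65.7 (P. guttatus), 42.0 (C. ornata), 13.8 (D. gansi), 59.0 (P. regius) and 47.6 (E. colubrinus). The snakes other than D. gansi were above every lizard but the chameleon. Its limbless difference was 0.64 (SE 0.65, limma adjusted p = 0.764), and 0.30 with centred species. It was 0.05 without M. fernandi and 1.25 without T. jacksonii.

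Over the 13 genes, limma called none between limbless and quadrupedal species at an adjusted p under 0.05, as for all 630 genes (0.0% called, smallest adjusted p 0.0928). At an unadjusted p under 0.05, limma passed 0 members as higher in limbless species, where 8.25% of all genes passed, and 2 members as lower (myomegalin and rootletin), where 1.59% of all genes passed. With centred species 0 members passed as higher (5.87% of all genes) and 3 as lower, with TTLL5 added to these (4.44% of all genes). The exact rank sum test passed no member at that level, and 45 of all genes. Whether a member passes on its own spread alone, without the share limma takes from other genes, was not tested. Leaving out 1 species, limma passed from 1 member (without P. vitticeps, 54 of all genes) to 4 (without T. jacksonii, 67 of all genes) unadjusted. Without T. jacksonii, dynactin subunit 1, gamma-tubulin complex component 6 and TTLL7 passed as higher and myomegalin as lower. Rootletin did not pass without T. jacksonii (limma unadjusted p = 0.0763) or without P. vitticeps (limma unadjusted p = 0.0515). None of the 13 genes had groups without overlap, against 2.7% of all genes wholly higher and 0.317% wholly lower in limbless species. The limbless mean was the higher one in 9 genes and the lower in 4, and with centred species in 6 and 7. The median difference of the 13 genes was 0.23 (centred -0.11), beside 0.35 (centred 0.01) over all genes. By role, the median was 0.17 (centred -0.17) for the 4 motors, -1.13 (centred -1.47) for the 4 centrosome and rootlet genes, 0.55 (centred 0.21) for the 3 genes of tubulin folding and modification, and 0.59 (centred 0.24) for the 2 microtubule-associated genes. The centrosome and rootlet genes were not alike, with -2.18 for rootletin, -1.85 for myomegalin, -0.41 for centriolin and 0.95 for gamma-tubulin complex component 6.

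**Figure D4:**
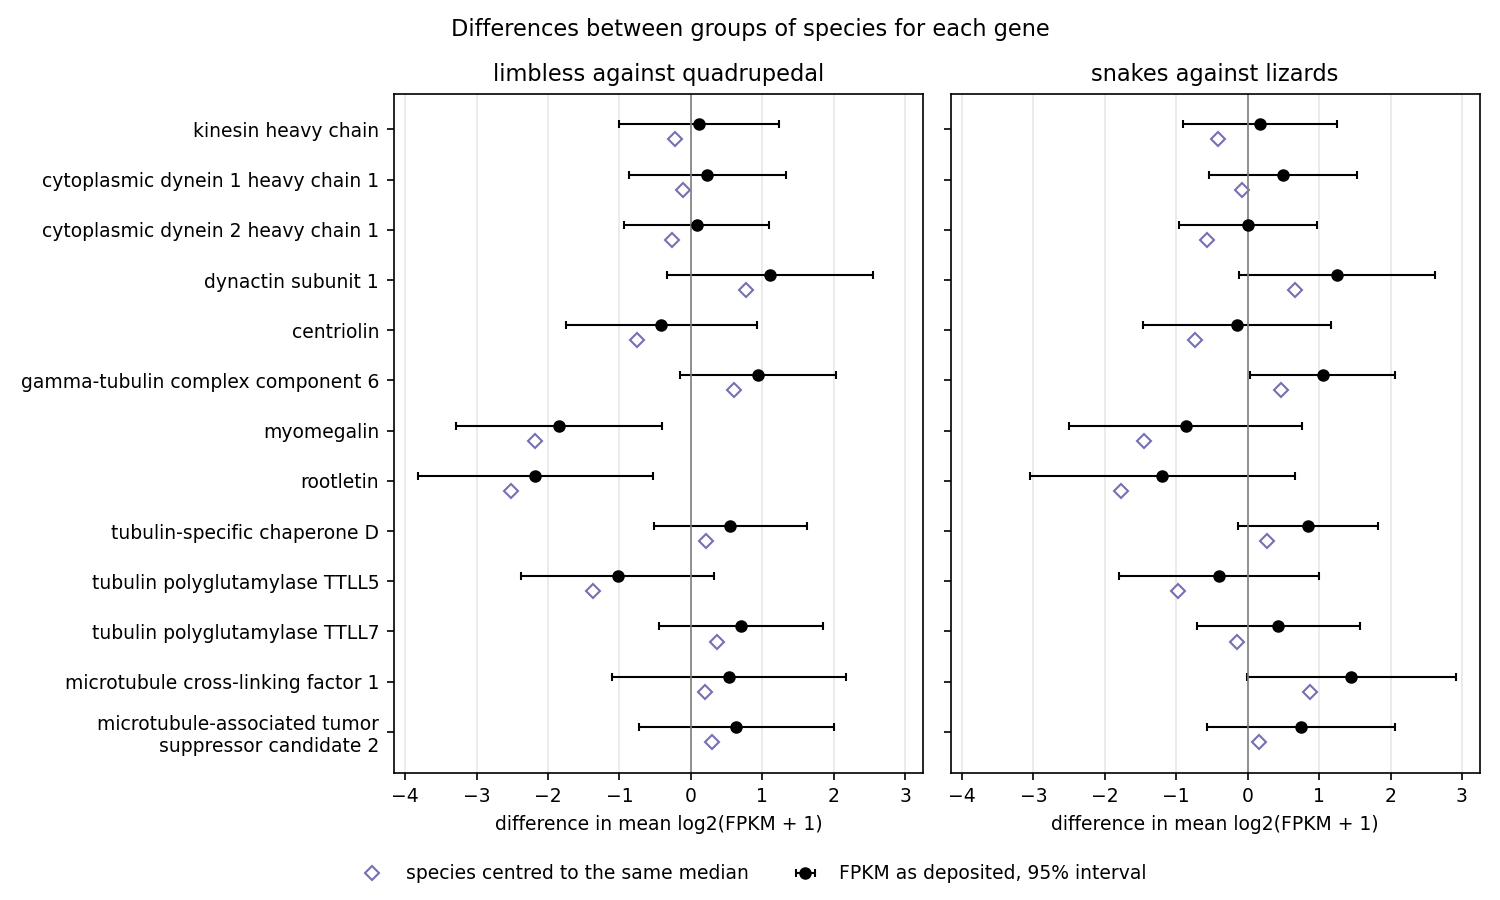
Difference in mean log2(FPKM + 1) of each gene, limbless minus quadrupedal (left) and snakes minus lizards (right); black points with 95% intervals from limma are FPKM as deposited, open diamonds the same difference after species were centred to the same median. Rootletin (-2.18) and myomegalin (-1.85) lie farthest from 0 on the left, and gamma-tubulin complex component 6 (1.05) has the interval that leaves out 0 on the right.

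Placing P. apodus with the lizards gave 5 snakes against 5 lizards, a comparison that shares all its libraries with the one above. Snakes had the higher mean in 9 of 13 genes (5 with centred species), beside 80.8% of all genes (48.9% centred), and the median difference was 0.43 (centred -0.15) beside 0.56 (centred -0.02) over all genes. No member passed the adjustment by limma, nor did any of the 630 genes (0.0%, smallest adjusted p 0.08). At an unadjusted p under 0.05, gamma-tubulin complex component 6 passed as higher in snakes, where 13.3% of all genes passed, and none as lower, where 0.159% did. With centred species the count turned over, with 0 members higher (3.65% of all genes) and rootletin alone lower (4.13% of all genes). The difference of gamma-tubulin complex component 6 was 1.05 (SE 0.48, 95% interval 0.03 to 2.07, limma adjusted p = 0.352) and 0.47 with centred species (limma unadjusted p = 0.299), with an exact two-sided rank sum p of 0.0317. The chaperone reached the same exact p, with a difference of 0.84 (SE 0.46, limma adjusted p = 0.413), and 0.26 with centred species. At an unadjusted p under 0.05 the exact rank sum test passed these 2 members and 59 of all 630 genes, and after adjustment it passed none. Microtubule cross-linking factor 1 differed by 1.45 (SE 0.70, limma adjusted p = 0.369), and 0.87 with centred species. Rootletin differed by -1.19 (SE 0.88, limma adjusted p = 0.502), by -1.77 with centred species, and by -1.90 (without P. apodus) to -0.53 (without T. jacksonii) over omissions of 1 species. Myomegalin differed by -0.87 (SE 0.77, limma adjusted p = 0.570), by -1.45 with centred species, and by -1.54 (without P. apodus) to -0.53 (without C. ornata) over these omissions. No gene of the 13 separated snakes from lizards without overlap, against 1.9% of all genes wholly higher and 0.0% wholly lower in snakes.

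P. apodus, the only limbless lizard, was below all 5 snakes in 7 of the 13 genes (42.4% of all genes) and below all 4 quadrupedal lizards in 4 (26.5% of all genes). Those 4 were myomegalin, rootletin, TTLL5 and microtubule cross-linking factor 1, and in each the legless lizard had the lowest value of the 10 species. It was within the snakes' range in the other 6 genes, which included kinesin heavy chain, dynactin subunit 1 and TTLL7, and within the quadrupedal range in 9. M. fernandi also held the lowest value in 4 genes, and T. jacksonii and P. guttatus each held the highest in 4. Over all 630 genes these shares were 21.4% and 31.3% for the lowest value in P. apodus and M. fernandi, and 13.0% and 18.1% for the highest in T. jacksonii and P. guttatus.

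Across the 6 locomotor modes, in modes of 1 to 3 species, no member passed the limma F test, adjusted (0.0% of all genes) or unadjusted (10.5% of all genes). Dynactin subunit 1 (F = 2.96, limma adjusted p = 0.468), TTLL5 (F = 2.94, adjusted p = 0.472) and rootletin (F = 2.88, adjusted p = 0.477) came nearest. With centred species, TTLL5 (F = 3.90), rootletin (F = 3.80) and myomegalin (F = 3.16) passed unadjusted, where 11.1% of all genes did, with limma adjusted p of 0.367, 0.367 and 0.424. Quantile normalization passed 2 members unadjusted, where 71 of all 630 genes passed. Leaving out 1 species of lateral undulation passed 0 to 2 members, where 48 to 70 of all 630 genes passed. Within lateral undulation the median fold between the highest and lowest species was 2.68 (1.08 to 26.7), beside 2.82 over all genes, and between the 2 snakes of other movements it was 3.27 (1.01 to 8.87), beside 2.03. Gamma-tubulin complex component 6 and the chaperone were nearly equal in those 2 snakes, at 1.01-fold and 1.08-fold, while microtubule cross-linking factor 1 differed 8.87-fold. Between the 2 terrestrial lizards the median was 1.93 (1.05 to 13.7), beside 2.13, with kinesin heavy chain the closest.

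A list of 15 other genes of microtubules, cilia and cargo transport was set beside the members. Limma called none of them at the adjusted threshold (0.0% of all genes). At an unadjusted p under 0.05 it passed 1 as higher (8.25% of all genes) and 1 as lower (1.59%) in limbless species. With centred species it passed 0 as higher (5.87% of all genes) and 3 as lower (4.44%). Their median difference was 0.12 (centred -0.22). Huntingtin, a scaffold that joins vesicles to dynein and kinesin, was at 1.89 FPKM (C. ornata) to 17.7 FPKM (P. regius) in limbless species, with a median of 4.83. It was at 59.4 FPKM in P. vitticeps, 2.39 in M. fernandi, 43.9 in T. jacksonii and 41.4 in B. vittatus. As for rootletin, M. fernandi was the quadrupedal species with low values (difference -2.03, SE 0.77, limma adjusted p = 0.284). Cytospin-A, which links microtubules and actin, was at 9.75 to 36.4 FPKM in limbless species, and at 24.3 in P. vitticeps, 2.97 in M. fernandi, 5.56 in T. jacksonii and 1.20 in B. vittatus (difference 1.43, SE 0.63, limma adjusted p = 0.429). Microtubule-actin cross-linking factor 1, a giant linker of both filaments, ran from 3.29 FPKM in E. colubrinus to 76.1 in P. guttatus. Without centring, the evenest of the list were tau-tubulin kinase 2, a kinase needed to build cilia (12.7 to 33.0 FPKM), and the ciliary X-linked retinitis pigmentosa GTPase regulator (2.90 to 14.02). With centred species the SD of tau-tubulin kinase 2 was 0.42, at the 4.13 percentile of all genes. That of the GTPase regulator was 0.82, at the 48.1 percentile.

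With centred species, the 13 genes did not vary together. Over their 78 pairs, the median r between centred log2 values in 10 species was 0.05, beside 0.02 over all pairs of the 630 genes, and 45 pairs were above 0. More of the pairs were above 0 without centring, and the median of those r is not given here. The pairs ranged from -0.78 (gamma-tubulin complex component 6 and TTLL5) to 0.72 (kinesin heavy chain and the ciliary dynein, 0.29 without centring). The dynein 1 heavy chain had r of 0.59 with kinesin heavy chain, 0.56 with the ciliary dynein and -0.28 with dynactin subunit 1, and without centring these were 0.25, 0.43 and 0.40. Gamma-tubulin complex component 6 and the chaperone had r of 0.65, and 0.79 without centring. The values of a pair come from the same libraries, and 10 species with shared ancestry are not independent points.

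Among all rows, likeness was taken as the highest r of centred log2 values over the 10 species. Centring raised the SD of kinesin heavy chain from 0.67 to 1.00, and r without centring is not given here. The rows of highest r with kinesin heavy chain were the RNA export factor THO complex subunit 4 (r = 0.96), importin-7 (0.82) and a row named after a jockey-like mobile element (0.82). For the dynein 1 heavy chain they were double-stranded RNA-specific editase 1 (0.86), junction plakoglobin (0.83) and the same mobile element row (0.83). For dynactin subunit 1 they were ankyrin-1 (0.79), calmodulin-binding transcription activator 2 (0.78) and ATP-binding cassette sub-family A member 1 (0.75). No other member of the 13 was among these. Before centring, 2 of the rows named for kinesin heavy chain varied little, THO complex subunit 4 from 9.18 to 20.03 FPKM and importin-7 from 8.36 to 16.38. The mobile element row ran from 6.39 to 131.18 FPKM. Centring shifts both rows of a pair by the same amount in each species, and its part in these r was not tested.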

How the data were processed

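Cerebellar total RNA of 10 squamate species (RNeasy Plus Micro, TruSeq Stranded Total RNA with Ribo-Zero, NextSeq) was sequenced by the authors. Per the methods and the submitters' processing notes, the authors used Trimmomatic for trimming, SortMeRNA against ribosomal reads, Trinity for a de novo assembly of each species and OrthoFinder for orthologs, and deposited FPKM from RSEM for orthologs above a threshold. Read depth is unknown from FPKM, so no counting interval is given. The labels and methods do not say how duplicate sequencing runs were merged. The FPKM of a gene depend on the transcripts assembled in that species.

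Species were taken from the labels (M. fernandi is named Lepidothyris fernandi in the table), and limb state, lineage and locomotor mode from the study. limma 3.58.1 (R 4.3.3) was fitted on log2(FPKM + 1) of all 630 rows, 6 against 4 and 5 against 5 species and over 6 modes, with Benjamini-Hochberg adjustment at 0.05. Folds on this scale understate changes of low genes. The SE, interval and p of limma rest on a spread drawn partly from the other rows, not on the values of that gene alone. An exact two-sided rank sum test was the other tool, and the fit was tested on simulated data. There limma called 62% of genes shifted by 2 log2 units between limbless and quadrupedal species, and 74% between snakes and lizards. Its F test over the modes called 59% of genes shifted by 3 log2 units in lateral undulation. Differences of such sizes can therefore be missed. Alternatives were a pseudocount of 0.1, median centring, quantile normalization, a mean of at least 5 FPKM, and leaving out each species. Python 3.11.15 with pandas 2.3.3 and scipy 1.17.1 did the rest.

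The members, gene lists, markers and tests were chosen with earlier results of these data known. All 13 members are named. Of the 15 related genes, those named are the 2 of smallest limma p between limbless and quadrupedal species, the 2 of largest SD and the 2 of smallest SD, and for 3 motors the 3 rows of highest r. Markers were taken as a group, and those named singly were chosen after their values were seen. No reference sequence was used here, so genes carry no coordinates.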

Additional observations from a re-analysis of the deposited data

Results flagged for a closer look

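In 2 of 26 sets of values (13 genes in the limbless and in the quadrupedal species) 1 species lay far from the others of its group on the log2(FPKM + 1) scale, by Dixon's criterion, which chance meets in about 1 in 20 such sets. Both were the chameleon T. jacksonii among the 4 quadrupedal lizards. Its kinesin heavy chain level of 17.7 FPKM was the lowest, at a gap of 0.914 of the group's range (critical value 0.829), and its centriolin level of 20.1 FPKM was the highest, at a gap of 0.847.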

How the results depend on the processing

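No member of the 13 passed the adjusted threshold under any alternative. Over all 630 genes, leaving out 1 species gave 0 to 4 calls between limbless and quadrupedal species (4 without D. gansi, 2 without T. jacksonii, 1 without B. vittatus) and 0 to 2 between snakes and lizards (2 without D. gansi, 1 without T. jacksonii, 1 without B. vittatus), none of them a member, and 0 across modes. The other alternatives gave 0 calls. The filter on low values left 596 genes and removed centriolin and cytoplasmic dynein 2 heavy chain 1.

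Signs turned only for differences of at most 0.53 in size, the value of microtubule cross-linking factor 1 between limbless and quadrupedal species. Under median centring and quantile normalization, the limbless difference was -0.22 and -0.17 for kinesin heavy chain, -0.11 and -0.11 for the dynein 1 heavy chain, and -0.26 and -0.14 for the dynein 2 heavy chain. Between snakes and lizards the same settings gave -0.41 and -0.31 for kinesin heavy chain, -0.084 and -0.0014 for the dynein 1 heavy chain, -0.57 and -0.44 for the dynein 2 heavy chain, and -0.15 and -0.19 for TTLL7, and a pseudocount of 0.1 gave -0.003 for the dynein 2 heavy chain. Leaving out 1 species, limbless differences ranged from -0.20 to 0.38 for kinesin heavy chain, -0.15 to 0.51 for the dynein 1 heavy chain, -0.088 to 0.21 for the dynein 2 heavy chain, -0.74 to 0.35 for centriolin and -0.043 to 1.05 for microtubule cross-linking factor 1. Snake differences ranged from -0.066 to 0.50 for kinesin heavy chain, -0.21 to 0.15 for the dynein 2 heavy chain and -0.38 to 0.46 for centriolin. The other members kept their sign in both contrasts under every alternative run. The SD of the dynein 2 heavy chain was 0.70 with centred species, and that of centriolin 0.57 without T. jacksonii. No paired analysis was possible because each species has 1 sample.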
